A study of Homo sapiens with 6 samples.

Results

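Matrix metalloproteinases (MMPs), their tissue inhibitors (TIMPs) and the membrane-anchored inhibitor RECK were examined in A549 cells with and without the MIR21 gene. The group held 10 of the 58174 genes listed in the deposited expression table. These were the secreted proteases MMP1, MMP2 and MMP7, the membrane-type proteases MMP14, MMP15 and MMP24, the inhibitors TIMP1, TIMP2 and TIMP3, and RECK. They were taken by gene symbol, and their values in this same comparison were known when they were chosen, so their differences are given as a description and without p-values. Where a member is said to be called, this gives its side of the threshold in the fit over all genes and is not independent evidence. A549 is an established cell line from a human lung adenocarcinoma. Ctrl libraries came from the parental A549 population. For MIR21-KO libraries, Cas9 and a guide RNA on either side of the MIR21 locus had been transfected, and cells were grown out of single sorted ones. Each group had 3 libraries of polyA RNA, made 48 h after cells had been seeded. The study describes its experiments as biological replicates and these libraries as independent samples, while the labels do not say what each library was taken from. How many clones stand behind the 3 MIR21-KO libraries is not given, so an effect of the deletion and a property of a clone cannot be told apart.

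MMPs are zinc-dependent proteases that cleave collagens, laminins, fibronectin and many surface proteins. Most are made as inactive proenzymes and are switched on by removal of the propeptide. Secreted MMPs act in the surrounding matrix, whereas membrane-type MMPs are held at the cell surface. TIMPs bind the active site of MMPs and block it. TIMP2 has a second role, since it links the proenzyme of MMP2 to MMP14 at the membrane, where MMP2 is activated. RECK is a glycosylphosphatidylinositol-anchored protein that restrains several MMPs. RECK and TIMP3 have both been described as targets of miR-21, the microRNA made from MIR21.

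The mature product of the deleted gene was set beside these transcripts, which were searched for letters complementary to its seed, the stretch of a microRNA that pairs with a target. The mature sequence (RefSeq, GRCh38.p14, chr17:59841273-59841294, plus strand) is shown with its seed, bases 2 to 8, in capitals.
hsa-miR-21-5p: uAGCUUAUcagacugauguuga
In the longest annotated 3' UTR of each member (GENCODE 29, GRCh38), matches were sought in 4 forms on the transcript strand, the 8mer ATAAGCTA, the 7mers ATAAGCT and TAAGCTA, and the 6mer TAAGCT, where a longer form contains the shorter ones. Each match found is given on its own line with the matching letters in capitals, each in 28 bases of the plus strand, at chr9:36124169-36124196 for RECK, chr22:32860395-32860422 and chr22:32861748-32861775 for TIMP3, and chr16:55506389-55506416 for MMP2.
RECK: tttcacagtttgaaATAAGCTAtttgat
TIMP3, site nearer the stop codon: acccacatggggacATAAGCTAattttt
TIMP3, site further from the stop codon: gttttgagctttctATAAGCTAtagctt
MMP2: agaacctcagggagagTAAGCTctagtc
RECK thus held an 8mer and TIMP3 held a pair of them, at positions 1032 and 2385 of a 3' UTR of 3666 bases. MMP2 held only the 6mer form. No match of any of these forms was found in the 3' UTRs of the other 7 members. Among 11657 protein-coding genes that were expressed and had an annotated 3' UTR, 2.977% held an 8mer and 14.3% had a 6mer as their longest match. Such letters describe a sequence and do not show that a site is used.

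Sequencing depth was 10631667 to 14345209 reads assigned to genes per library. Values are FPKM, fragment numbers scaled by gene length and by library size. Comparisons of levels between genes, unlike those between groups, depend on the deposited gene lengths. Whether these lengths match the transcripts made in these cells was not tested. For a 1 kb gene, 1 read equalled 0.0731 to 0.0930 FPKM. The 16006 genes that reached a mean of 0.5 FPKM over the libraries were compared between the groups by limma on log2(FPKM + 0.1), and a gene was called at a false discovery rate (FDR) under 0.01. Differences on this scale are understated for low genes. The median log2 difference over all tested genes was -0.02. MIR21 itself was listed at 0 FPKM in every library, and since polyA selection does not retain mature microRNAs or their hairpins, these libraries do not check the deletion directly. VMP1, a gene for a membrane protein of autophagy whose annotated span covers MIR21, was at 75.1 ± 3.83 FPKM in Ctrl and 142.5 ± 7.18 FPKM in MIR21-KO (SD, n = 3, limma FDR 0.000473). Epithelial markers summed to 3035 to 3208 FPKM in Ctrl and 2273 to 2977 FPKM in MIR21-KO, with 6 of the 7 at a mean of at least 1 FPKM. This list included NQO1 and AKR1B10, detoxification genes that are abundant in A549 cells but do not define epithelium. The other 5 (EPCAM, KRT7, KRT8, KRT18 and CDH1) summed to 1601 to 1716 FPKM in Ctrl and 1132 to 1616 FPKM in MIR21-KO, and CDH1 was called lower, at 8.18 and 2.86 FPKM (limma FDR 0.000175). EPCAM, a surface marker of epithelium, was low in both groups at 0.389 to 1.65 FPKM. Of 8 fibroblast markers, 5 had means under 0.5 FPKM and COL1A2 was listed at 0 throughout, while their sum was 7.74 to 8.43 FPKM in Ctrl and 13.7 FPKM in every MIR21-KO library, of which THY1 made up 5.92 to 8.23 FPKM. THY1 was called higher, with means of 2.28 FPKM in Ctrl and 7.15 FPKM in MIR21-KO (limma FDR 0.00059). All 4 endothelial markers together stayed at or under 0.0855 FPKM. The 5 leukocyte markers summed to 3.35 to 3.81 FPKM in Ctrl and 3.49 to 5.60 FPKM in MIR21-KO, most of it CD14. The part of such markers in the results was not tested, and in bulk RNA fewer cells with a transcript and less of it per cell cannot be told apart.

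The main pattern among the members was a change of which protease had the highest FPKM, while TIMP1 and TIMP2 had the highest levels in both groups. MMP2, TIMP2 and RECK were higher in MIR21-KO cells, whereas MMP24 and MMP7 were lower. Of the 10 members, 8 were abundant enough to be tested, and 5 of them were called, 3 higher and 2 lower. MMP2 and MMP14 reached the mean needed for the test only through MIR21-KO, as their Ctrl means were 0.438 and 0.489 FPKM. Over all tested genes 16.0% were called (7.66% higher and 8.38% lower). Because the members were chosen from this contrast, nothing is read from their count. The values of the groups did not overlap for 7 of the 8 tested members, 4 higher and 3 lower, and the same held for 48.1% of all tested genes (22.8% higher and 25.2% lower). MMP7 was the call nearest to the threshold, and it was lost, at log2 differences of -0.77 to -0.81, when any one of Ctrl replicates 1, 2 and 3 or MIR21-KO replicate 2 was left out. The calls of MMP2, MMP24, TIMP2 and RECK were made without each library in turn.

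**Figure D1:**
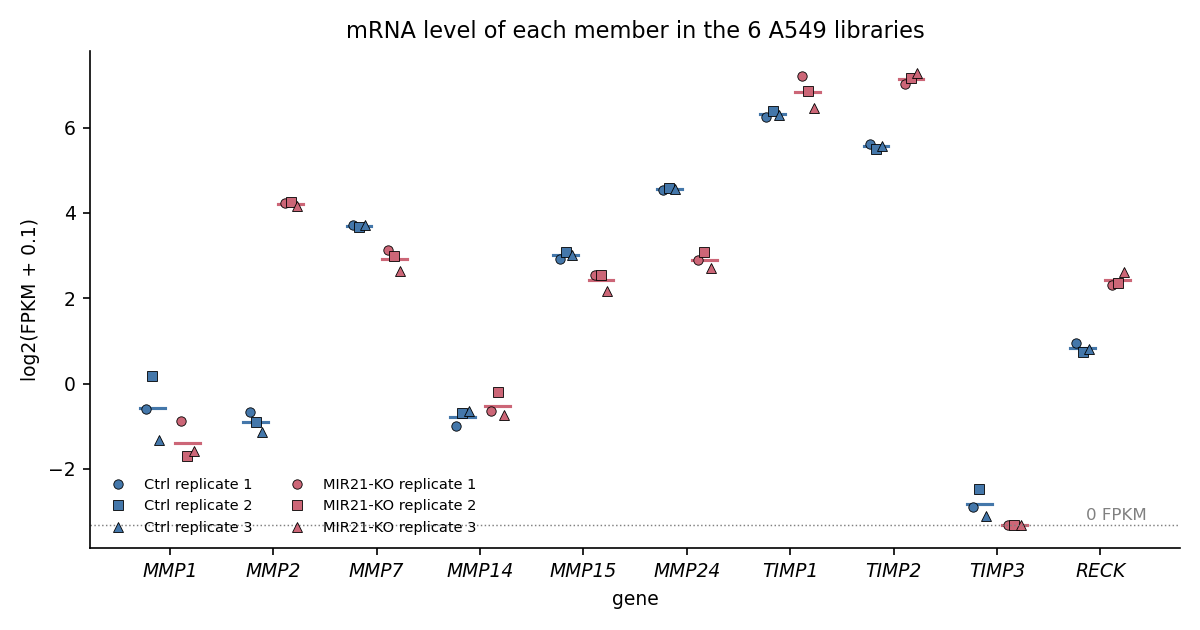
FPKM of the 10 members in each of the 3 Ctrl and 3 MIR21-KO libraries, on the log2(FPKM + 0.1) scale, with a symbol for each library, a bar at the mean of each group and a dotted line at 0 FPKM. MMP2 lies among the lowest members in Ctrl (0.438 FPKM) and well above MMP24 in MIR21-KO (18.5 and 7.36 FPKM), while TIMP1 and TIMP2 have the highest levels in both groups.

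Among the secreted proteases, MMP2 differed most. MMP2, also called gelatinase A, degrades type IV collagen of basement membranes (ENSG00000087245, chr16:55389700-55506691, plus strand). Its level was 0.526, 0.434 and 0.356 FPKM in Ctrl replicates 1 to 3 and 18.7, 19.1 and 17.9 FPKM in MIR21-KO replicates 1 to 3. All MIR21-KO libraries thus lay far above all Ctrl libraries, and libraries of a group lay close together. Group means were 0.438 ± 0.0850 and 18.5 ± 0.623 FPKM (SD, n = 3), a 42.3-fold ratio. In log2 the difference was 5.13 ± 0.14 (SE), the third largest rise of the 16006 genes tested. MMP2 was chosen with this contrast known and entered the test through its MIR21-KO level, so this rank is a description only. The Ctrl level rested on 23 to 33 reads per library, compared with 1143 to 1254 reads in MIR21-KO. With a pseudocount of 1 FPKM in place of 0.1 its log2 difference was 3.77, as the low Ctrl level weighs on the fitted value.

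MMP7, or matrilysin, is a small MMP made mainly by epithelial cells (ENSG00000137673, chr11:102520508-102530753, minus strand). It measured 13.1, 12.6 and 13.0 FPKM in Ctrl and 8.72, 7.81 and 6.14 FPKM in MIR21-KO. Every MIR21-KO library was under every Ctrl library, and MIR21-KO libraries were more spread. Ctrl exceeded MIR21-KO by 1.71-fold, with means of 12.9 ± 0.239 and 7.56 ± 1.31 FPKM (SD, n = 3) and a log2 difference of -0.78 ± 0.13 (SE).

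MMP1, the interstitial collagenase (ENSG00000196611, chr11:102789920-102798160, minus strand), was close to the detection limit. Its values were 0.558, 1.04 and 0.297 FPKM in Ctrl and 0.447, 0.207 and 0.235 FPKM in MIR21-KO. These ranges overlapped and stood on 8 to 22 reads in Ctrl and 5 to 12 reads in MIR21-KO. With a mean over all libraries under 0.5 FPKM, MMP1 was not tested. MMP1 and MMP7 lie in a cluster of MMP genes on chromosome 11, of which MMP3, MMP8, MMP10, MMP12, MMP13, MMP20 and MMP27 were at or under 0.134 FPKM in every library. MMP7 was therefore the abundant gene of this cluster in both groups.

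Among membrane-type proteases, MMP24 was the most abundant in Ctrl. MMP24 (MT5-MMP) is a transmembrane protease known best from the nervous system (ENSG00000125966, chr20:35226654-35277000, plus strand). It was at 23.1, 23.7 and 23.4 FPKM in Ctrl and at 7.37, 8.33 and 6.39 FPKM in MIR21-KO. The groups were separate, with all Ctrl libraries within a narrow range. Means were 23.4 ± 0.329 and 7.36 ± 0.967 FPKM (SD, n = 3), that is 3.2-fold higher in Ctrl, and the log2 difference was -1.66 ± 0.10 (SE).

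MMP15 (MT2-MMP), a transmembrane protease of the same subfamily (ENSG00000102996, chr16:58025566-58046901, plus strand), measured 7.48, 8.40 and 7.94 FPKM in Ctrl and 5.73, 5.73 and 4.40 FPKM in MIR21-KO. All MIR21-KO values were lower than all Ctrl values. Its log2 difference of -0.59 ± 0.13 (SE) was not called, although it was called at -0.46 without MIR21-KO replicate 3, the library with the lowest value.

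MMP14 (MT1-MMP) is the main surface activator of proMMP2 and cleaves fibrillar collagen itself (ENSG00000157227, chr14:22836557-22849027, plus strand). It was low at 0.405, 0.521 and 0.541 FPKM in Ctrl and 0.543, 0.769 and 0.501 FPKM in MIR21-KO. The groups overlapped, on 23 to 42 reads per library. The log2 difference was 0.25 ± 0.31 (SE), with a 95% interval from -0.50 to 0.99, so that neither a rise nor a fall of MMP14 was detectable at this depth. MIR21-KO cells thus held MMP2 transcripts at 18.5 FPKM beside MMP14 transcripts at 0.604 FPKM.

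The inhibitors were the most abundant members. TIMP2, which inhibits MMPs and takes part in proMMP2 activation (ENSG00000035862, chr17:78852977-78925387, minus strand), measured 48.8, 44.9 and 47.7 FPKM in Ctrl and 129.9, 142.8 and 154.7 FPKM in MIR21-KO. The lowest MIR21-KO library lay far above the highest Ctrl library. Means were 47.1 ± 2.0 and 142.5 ± 12.4 FPKM (SD, n = 3), a 3.02-fold ratio, with a log2 difference of 1.59 ± 0.09 (SE) on 2722 to 11301 reads per library.

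TIMP1, a secreted inhibitor of most soluble MMPs (ENSG00000102265, chrX:47582313-47586789, plus strand), measured 75.8, 84.0 and 78.6 FPKM in Ctrl and 147.3, 116.1 and 87.7 FPKM in MIR21-KO. All MIR21-KO libraries were above Ctrl, yet replicate 3 came close to the highest Ctrl library. The log2 difference was 0.53 ± 0.18 (SE), which was not called. Without MIR21-KO replicate 3 it was 0.72 and called.

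TIMP3, an inhibitor that binds to the extracellular matrix (ENSG00000100234, chr22:32801701-32863043, plus strand), was nearly undetected. It was at 0.0341, 0.0808 and 0.0159 FPKM in Ctrl, which were 2, 4 and 1 reads, and was listed at 0 in all MIR21-KO libraries. A TIMP3 level worth 3 reads would be 0.0477 to 0.0606 FPKM, depending on the library. Although TIMP3 carries the 8mers shown above, its transcript was too scarce in either group for a difference to be measured, and no fold is given.

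RECK (ENSG00000122707, chr9:36036433-36124451, plus strand) had 1.82, 1.57 and 1.64 FPKM in Ctrl and 4.87, 5.07 and 6.02 FPKM in MIR21-KO. Libraries of both groups were clearly apart. Means were 1.68 ± 0.128 and 5.32 ± 0.615 FPKM (SD, n = 3), a 3.17-fold ratio, and the log2 difference was 1.60 ± 0.13 (SE) on 102 to 140 reads in Ctrl and 375 to 472 reads in MIR21-KO. RECK was the only member with both an 8mer and a level that allowed a comparison. TIMP2, in whose 3' UTR none of the match forms was found, had a log2 difference of 1.59. The part of the 8mer in the difference of RECK was not tested.

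**Figure D2:**
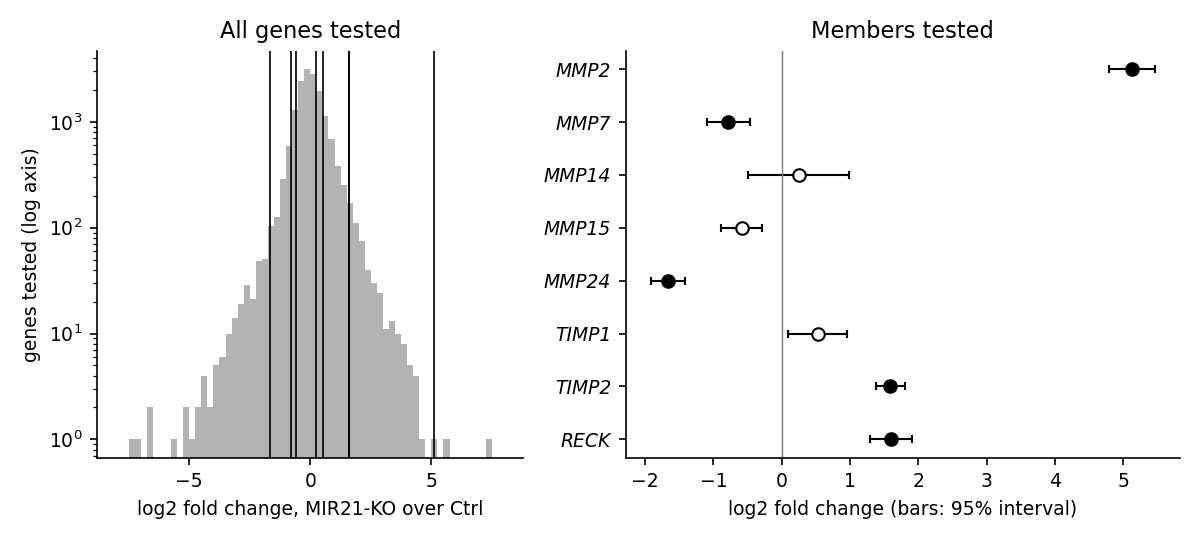
Left, number of tested genes (log axis) by log2 fold change of MIR21-KO over Ctrl, with the 8 tested members as vertical lines, and right, each member's value with its 95% interval from limma, filled where called. MMP2 lies at the far right of the distribution at 5.13, and among the intervals only that of MMP14 spans 0.

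The order of levels in FPKM, which rests on the deposited gene lengths, also differed between the groups. In Ctrl it ran from TIMP1 over TIMP2, MMP24, MMP7, MMP15 and RECK to MMP1, MMP14, MMP2 and TIMP3. The ranges of MMP1 and MMP14 overlapped, as did those of MMP14 and MMP2, so this part of the order is not resolved. In MIR21-KO the order was TIMP2, TIMP1, MMP2, MMP7, MMP24, RECK, MMP15, MMP14, MMP1 and TIMP3. Here TIMP2 and TIMP1, MMP7 and MMP24, and RECK and MMP15 were not separated by their ranges. MMP2 stood among the least abundant members in Ctrl and was the most abundant MMP of the group in MIR21-KO.

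The FPKM of the 6 MMP members and of the 3 TIMPs were summed in each library to describe their balance. MMPs summed to 45.8 ± 0.845 FPKM in Ctrl and 39.6 ± 3.57 FPKM in MIR21-KO, whereas TIMPs summed to 126.6 ± 2.22 and 259.5 ± 17.4 FPKM (SD, n = 3). The ratio of MMP to TIMP transcripts was 0.362, 0.363 and 0.361 in Ctrl replicates 1 to 3 and 0.1496, 0.162 and 0.147 in MIR21-KO replicates 1 to 3. The MIR21-KO ratio was thus 0.4219 times that of Ctrl. The MMP sum was 45.1 to 46.8 FPKM in Ctrl and 35.5 to 41.9 FPKM in MIR21-KO, and its makeup differed. MMP24 supplied 51.1% of it in Ctrl and 18.5% in MIR21-KO, MMP7 28.2% and 19.0%, and MMP2 0.957% and 46.9%. Within the TIMPs, the mean share of TIMP1 was 62.7% in Ctrl and 44.7% in MIR21-KO. It was uneven among MIR21-KO replicates 1 to 3, at 53.1%, 44.8% and 36.2%. The ratio depended on single members, as the MIR21-KO value was 0.7023 times that of Ctrl without MMP24, 0.2886 times without TIMP1 and 0.2263 times without MMP2. These are sums of member FPKM, which leave out MMP17 and TIMP4 and depend on the deposited gene lengths. They hold no measure of protein or of protease activity.

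**Figure D3:**
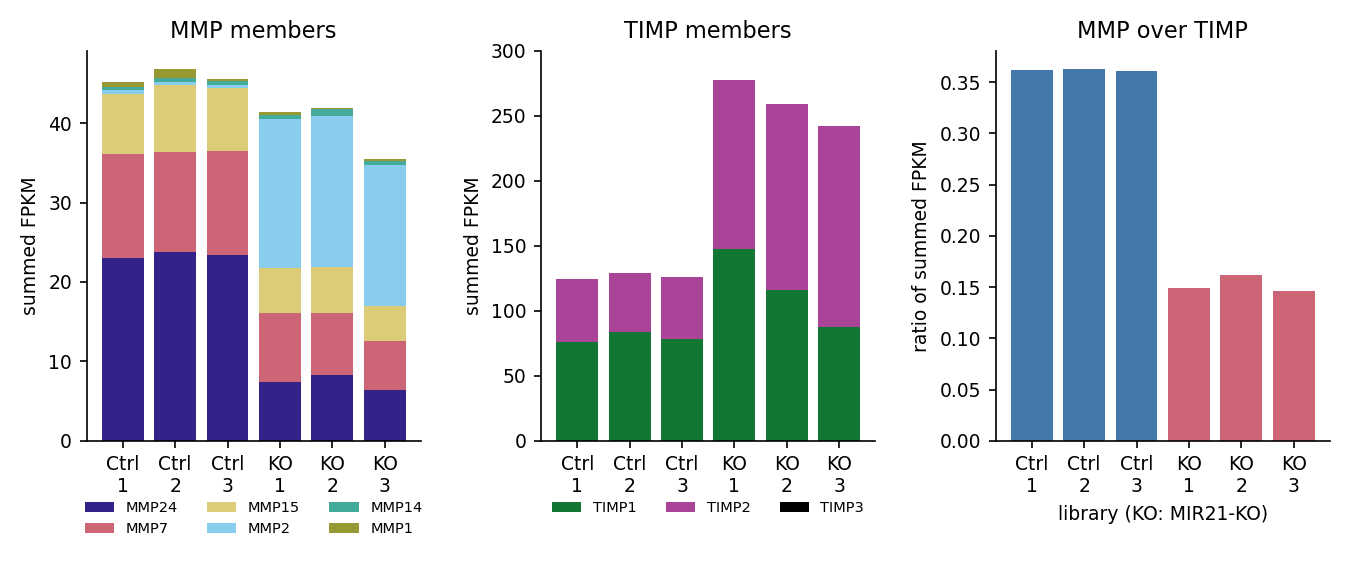
Summed FPKM of the MMP members (by gene) and of the TIMP members (by gene) in each library, and the ratio of these sums. MMP sums are 35.5 to 46.8 FPKM in all libraries, with MMP2 a large part only in MIR21-KO, and the ratio is about 0.36 in Ctrl and 0.147 to 0.162 in MIR21-KO.

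Some members share their locus with other transcripts. Libraries were strand-specific, but the strand setting of the counting is not given, so reads of a gene and of its antisense partner cannot be told apart here. MMP24OS, which runs antisense to MMP24 and overlaps its exons, was at 9.18, 9.99 and 9.66 FPKM in Ctrl and at 11.5, 9.52 and 7.18 FPKM in MIR21-KO. Its groups overlapped and its log2 difference was -0.06 (FDR 0.826 by limma), which turned to 0.12 without MIR21-KO replicate 3. MMP24 and MMP24OS thus had different values in the same libraries. A pair of further antisense transcripts was looked at after their values had been seen. AL121753.2, also antisense to MMP24, was at 1.56 to 1.78 FPKM in Ctrl and 2.69 to 3.35 FPKM in MIR21-KO, with a log2 difference of 0.80 (limma FDR 0.00599), opposite in direction to MMP24. AC022966.1, a transcript of 367 bases on the strand opposite to TIMP2 and within its last exon, was at 53.5, 35.7 and 46.2 FPKM in Ctrl and 82.0, 98.6 and 158.6 FPKM in MIR21-KO. These groups did not overlap, with a log2 difference of 1.28 (limma FDR 0.0114) in the direction of TIMP2, on 141 to 755 reads compared with 2722 to 11301 for TIMP2. SYN1, opposite to TIMP1, was at or under 0.235 FPKM, and SYN3, which surrounds TIMP3, was listed at 0.

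The 3 MIR21-KO libraries differed from each other along gene length, and members were set beside this trend. Between MIR21-KO replicates 3 and 1 the median log2 difference was -0.21 for the shortest quartile of tested genes (at most 1761 bases) and 0.25 for the longest (6506 bases or more), compared with 0.03 and -0.07 between Ctrl replicates 3 and 1. TIMP1, the shortest member at 1541 bases, had a log2 difference of -0.75 between these MIR21-KO libraries, and MMP7, at 2323 bases, of -0.50. RECK, the longest at 6045 bases, had 0.30 and TIMP2, at 5633 bases, 0.25. Members of the middle lengths did not all lie near the median of -0.01 for genes of 3858 to 6502 bases, a class that also holds RECK and TIMP2. MMP2, at 4933 bases, had -0.06 and MMP14, at 4464 bases, -0.10, whereas MMP24, at 4414 bases, had -0.20 and MMP15, at 4419 bases, -0.37. TIMP1 and MMP7 also lay further from 0 than the medians of their classes, -0.21 and -0.23. Between the groups the median log2 differences of the length quartiles were 0.03, 0.01, -0.03 and -0.05. The part of gene length in the spread of the members, or in their differences between the groups, was not tested.

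**Figure D4:**
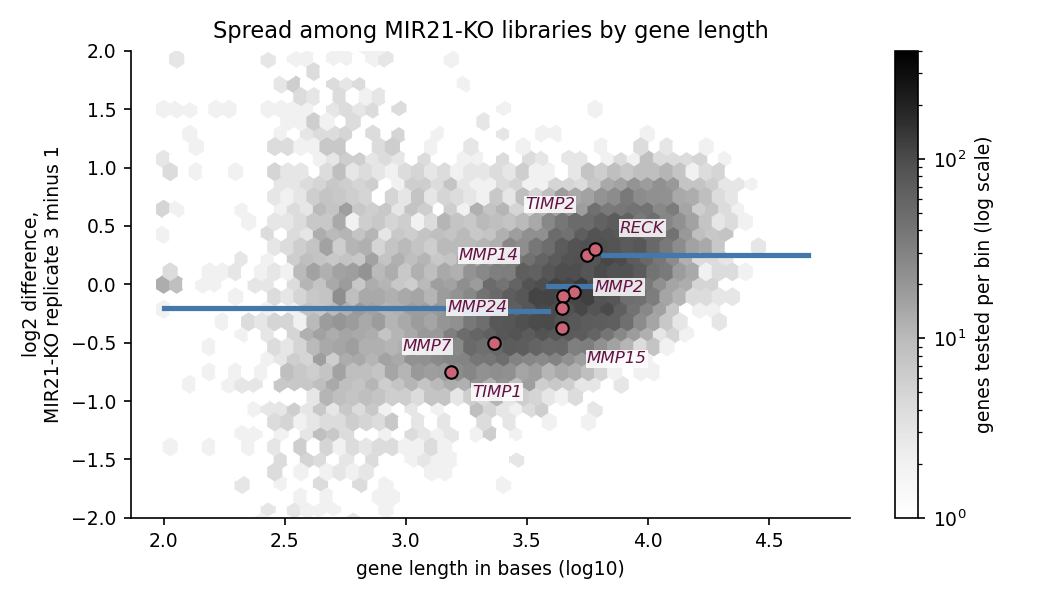
Log2 difference between MIR21-KO replicates 3 and 1 against gene length (log10 of bases) for the tested genes, shaded by their number per bin, with the tested members as circles and the median of each length quartile as a blue line. TIMP1 and MMP7 lie at negative and TIMP2 and RECK at positive values, and genes beyond 2 in either direction are not drawn.

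Promoters were compared for AP-1 and ETS letters, since AP-1 and ETS factors are classical regulators of MMP genes. RefSeq promoters (GRCh38.p14, 250 bases before to 50 after the start) were at hand for 7 members, but not for MMP1, MMP2 and TIMP2. The AP-1 letters TGANTCA, which read alike on both strands, were found in 1 of the 7, MMP7, and in 7.709% of 35116 promoters. The ETS-type letters AGGAAG, sought on both strands, were found in MMP7 and TIMP1 and in 33.65% of all promoters. The matches of MMP7 (minus strand, chr11:102530798-102530824) and TIMP1 (plus strand, chrX:47582339-47582364) are shown, with the motif letters in capitals, as the match nearest the start of each gene.
MMP7, AP-1 letters: aacactcaaaTGAGTCAcctatttcca
TIMP1, ETS-type letters: taatgcatccAGGAAGcctggaggcc
A match is no proof of binding, and its absence from this window says nothing of the factor.

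The genes around the members were followed in 10 lists with 154 genes, of which 93 were abundant enough to be tested. Of these, 36 were higher and 10 lower in MIR21-KO by limma, that is 49.5% beside 16.0% of all tested genes. Among the higher genes, ADAM23, ADAMTS14, IGFBP5 and FLI1 had Ctrl means under 0.5 FPKM and entered the test only through MIR21-KO. Their median log2 difference was 0.50 beside -0.02 over all genes. The lists were drawn up with earlier results of these data known, so their counts are a description. The total of 46 was 29 without MIR21-KO replicate 2, and the 10 lower calls were 6 without any one of Ctrl replicates 2 and 3 and MIR21-KO replicate 2. Limma FDRs of the called genes named from these lists reached at most 0.00595, and their values are mean FPKM of 3 libraries.

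Of the other MMPs and TIMP4, 2 of 19 were tested and 0 were called by limma, 1 had an unadjusted p under 0.05, and voom on recovered reads called 0. MMP17, a membrane-type MMP held by a lipid anchor, was at 3.36 to 3.85 FPKM in Ctrl and 4.53 to 6.71 FPKM in MIR21-KO (limma FDR 0.0229). TIMP4 was at 7.53 and 8.04 FPKM (limma FDR 0.429). The 17 others did not exceed 0.420 FPKM in any library.

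In the lists of related metalloproteinases and proteins grouped with them, the called genes of the ADAM, ADAMTS and tolloid lists were higher in MIR21-KO. Of the ADAMs, membrane proteases that shed surface proteins, 2 of 8 tested were higher, ADAM19 with 13.5 and 37.1 FPKM and ADAM23, a member without protease activity, with 0.400 and 2.06 FPKM. The number of ADAMs called in either direction was 5 when each library's trend on gene length was removed and 5 by voom. ADAM9, at 52.4 and 36.8 FPKM, was not called. The ADAMTS list holds secreted proteases that act on proteoglycans and procollagens, and also ADAMTS-like proteins. Of its genes, 4 of 10 tested were higher, among them ADAMTS14 (0.0671 and 2.18 FPKM), ADAMTS7 (2.17 and 6.62 FPKM) and ADAMTS15 (2.01 and 4.35 FPKM). The tested genes included the ADAMTS-like ADAMTSL4 and ADAMTSL5, which were not called. BMP1, which trims procollagens, was at 15.2 and 33.0 FPKM, and PCOLCE2, which enhances that trimming, was at 5.97 and 14.0 FPKM. These were the 2 higher of 3 tested genes in the tolloid and astacin list. The other was PCOLCE, also an enhancer, so BMP1 was the only protease tested there. TLL1, a tolloid protease looked at after its values were seen, did not reach the mean needed for the test and differed in the opposite direction, with 0.480, 0.420 and 0.194 FPKM in Ctrl, on 20 to 46 reads, and a listed 0 in every MIR21-KO library.

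Of genes that activate proMMPs or restrain that step, 5 of 9 tested were higher and 1 was lower. FURIN, the convertase that cleaves the propeptide of membrane-type MMPs, was at 14.8 and 29.4 FPKM. PLAT, a plasminogen activator, was at 1.33 and 4.31 FPKM. PLAU, the other plasminogen activator, was at 87.4 and 111.8 FPKM and not called. SPINT2, an inhibitor of surface serine proteases, was lower at 60.0 and 27.0 FPKM. Of other inhibitors and clearance receptors, 3 of 5 tested were higher and 0 lower. These were TFPI2, a serine protease inhibitor of the matrix (41.8 and 146.8 FPKM), SPOCK1, a matrix proteoglycan (8.57 and 20.7 FPKM), and LRP1, an endocytic receptor that clears proteases (3.59 and 6.78 FPKM). TFPI2 was alone called in that list without any one of the Ctrl libraries or MIR21-KO replicate 2, where the count was 1.

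Of proteins that induce MMPs or dock them to the surface, 4 of 13 tested were higher and 2 lower. ITGB3, a subunit of the integrin that can hold MMP2 at the membrane, was at 1.23 and 14.9 FPKM. SDC1, a heparan sulfate proteoglycan, was at 83.6 and 155.2 FPKM, and ADGRA2, an adhesion receptor, at 1.09 and 2.08 FPKM. CLDN1, a tight junction protein, was lower at 30.7 and 9.93 FPKM, as was CAV1, the coat protein of caveolae, at 142.9 and 96.4 FPKM. BSG, an inducer of MMPs, at 158.6 and 138.0 FPKM, CD44, a docking receptor, at 52.2 and 57.9 FPKM, ITGB1 at 289.6 and 329.7 FPKM and CD151 at 103.2 and 129.3 FPKM were not called. The count of this list was 3 without any one of the Ctrl libraries or MIR21-KO replicate 2.

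Of matrix substrates, 9 of 17 tested were higher and 1 lower. FN1 (fibronectin) was at 20.1 and 195.7 FPKM with a log2 difference of 3.27 ± 0.16 (SE). COL4A1 and COL4A2, the chains of type IV collagen that MMP2 degrades, were at 27.2 and 122.8 FPKM and at 51.5 and 128.3 FPKM. TNC (tenascin) was at 1.39 and 6.02 FPKM and LAMB1, a laminin chain, at 37.1 and 50.7 FPKM. MMP2 and these type IV collagen chains were therefore both higher in the same libraries.

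Of surface and growth factor substrates, 4 of 11 tested were higher and 3 lower. IGFBP5, which binds insulin-like growth factors, had at most 1 read per Ctrl library and 17.6 FPKM in MIR21-KO, at least 463.8-fold higher against a floor of 3 reads per Ctrl library. LTBP1, which stores latent TGF-beta in the matrix, was at 4.88 and 26.3 FPKM and TGFB1 at 78.7 and 120.6 FPKM. AREG, a ligand of the EGF receptor, was lower at 33.5 and 1.63 FPKM, as were CDH1 (E-cadherin) at 8.18 and 2.86 FPKM and IGFBP3 at 20.1 and 11.1 FPKM. The chemokine CXCL8, at 39.7 and 54.7 FPKM, was not called.

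Of the AP-1 and ETS factors, 3 of 15 tested were higher and 3 lower. JUNB was at 35.3 and 76.5 FPKM, FOSL2 at 38.2 and 56.7 FPKM and FLI1 at 0.0692 and 1.67 FPKM. FOSL1 was lower at 33.6 and 14.8 FPKM, as were the epithelial ETS factors ELF3 at 15.6 and 8.10 FPKM and EHF at 9.44 and 4.24 FPKM. JUND, at 60.5 and 48.9 FPKM, was not called. Without any one of the Ctrl libraries or MIR21-KO replicate 2 this list had 2 or 3 called genes in place of 6. The calls of ADGRA2, CAV1, EHF, ELF3, FLI1, FOSL2, LAMB1, LRP1, SPINT2, SPOCK1 and TGFB1 were each lost without at least one of these libraries.

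**Figure D5:**
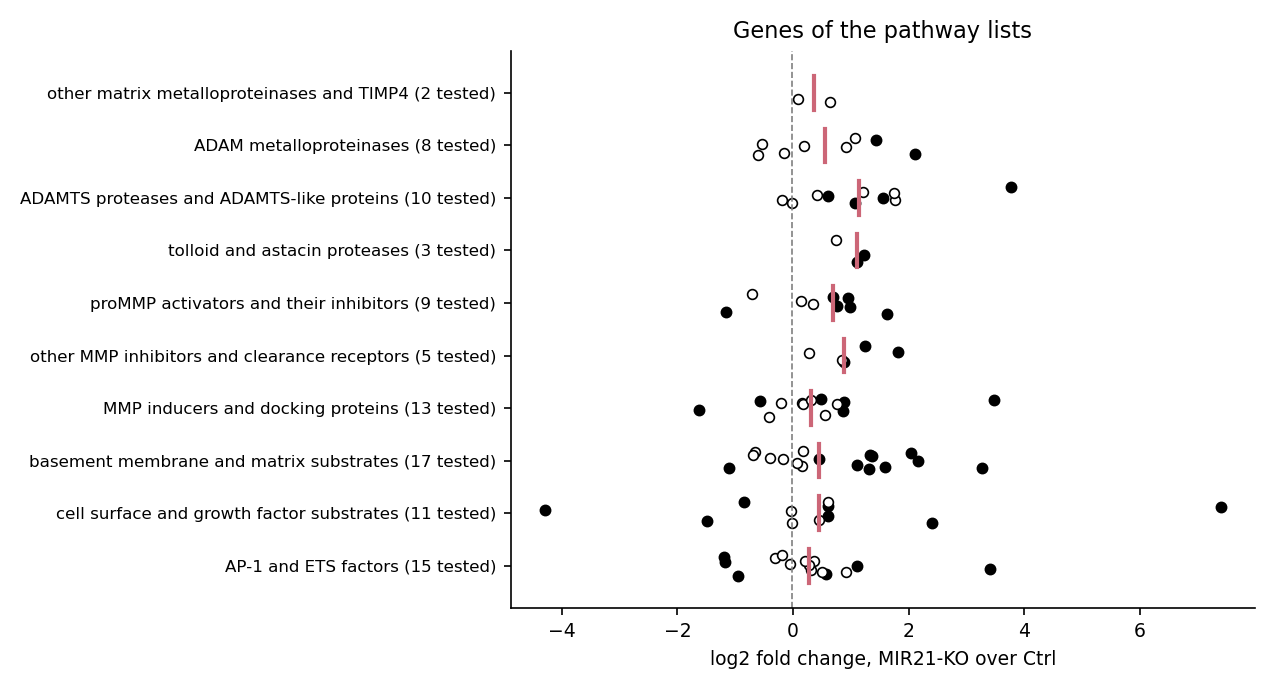
Log2 difference (MIR21-KO minus Ctrl) of each tested gene in the 10 lists of related genes, filled where called, with the median of each list as a bar and the median of all genes as a dashed line. Medians run from 0.28 for AP-1 and ETS factors to 1.15 for ADAMTS and ADAMTS-like genes. The point of IGFBP5 depends on the pseudocount, as its Ctrl libraries had at most 1 read.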

How the data were processed

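PolyA RNA-seq of A549 cells was analysed, with 3 Ctrl and 3 MIR21-KO libraries grouped by their titles. The authors deposited FPKM values for 58174 genes with gene lengths, and their own log2 fold changes, p-values and FDRs, which were not used. The submitters' processing notes name cutadapt 1.14, HISAT2 2.1.0, SAMtools 1.5, featureCounts 1.5.3, edgeR 3.18.1 and the build hg38, whereas annotation release, strand setting and treatment of shared reads are not given in the sources used here. FPKM times length were whole multiples of one step per library for 100% of values, from which reads were recovered. Relative to the sums of these reads, the library sizes behind the FPKM were 0.9497 to 1.0304, so a scaling had been applied. Floors of 3 reads cover counting error only, whereas the limma intervals rest on the spread between libraries. The study describes the libraries as independent samples, and how cultures or clones were divided among them is not given, so p-values measure the spread between these libraries.

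Genes whose mean reached 0.5 FPKM were compared by limma 3.58.1 in R 4.3.3 on log2(FPKM + 0.1), with trend and robust variance estimates, two-sided, with Benjamini-Hochberg adjustment over all 16006 genes. On simulated data for this comparison, with 200 of 15996 genes changed 2-fold, 180 were recovered with 4 false calls. The changed genes were well covered, and the simulated libraries had a fixed spread and no trend on gene length. Performance for low genes, or at the spread of the real libraries, is therefore not given by these numbers. GENCODE 29 matched 57836 of 58174 identifiers. Members and lists were chosen with earlier results of these data known. Named were all members, up to 3 called genes per list and direction by size of the log2 difference, list genes of at least 50 FPKM in either group, MIR21, VMP1, MMP24OS, SYN1 and SYN3. MMP17 and TIMP4, the tested genes of a list without a call, were added. A few list genes that the rule names are counted but not reported here by name. Figures were drawn with matplotlib 3.10.9.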

Additional observations from a re-analysis of the deposited data

How the results depend on the processing

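The calls of MMP2 (log2 differences of 3.77 to 5.40), MMP24 (-1.76 to -1.55), TIMP2 (1.53 to 1.66) and RECK (1.24 to 1.66) were made under all 13 alternatives, which were no filter, a minimum mean of 2 FPKM, a pseudocount of 1 FPKM, median-ratio scaling, voom on recovered reads, a replicate block, removal of the gene length trend (chosen after seeing the data) and leaving out each library, while MMP7 was called under 7, MMP15 under 3, TIMP1 under 1 and MMP14 under 0 of its 12. The count model of edgeR that had been planned was not run, because the files hold FPKM, and voom was used with the library sizes implied by the deposited values. Same-numbered libraries did not deviate together (correlations of -0.171, -0.018 and -0.017). These correlations cannot settle whether the replicate numbers pair libraries, which the labels do not say. With the replicate block 651 genes were called (379 higher, 272 lower, hence 58.2% higher in place of 47.7%), of which 649 were among the main calls, with 1 member lower and 29 list genes (23 higher, 6 lower). At an FDR of 0.05, 5114 genes were called (2428 higher, 2686 lower) in place of 2568 (1226 higher, 1342 lower). Leaving out each library gave 784 to 3418 calls (392 to 1603 higher, 378 to 1815 lower), 1 to 3 members lower, and 29 to 56 list genes (23 to 41 higher, 6 to 15 lower), with fewer libraries by construction. Without a filter 1 member was called lower. The MMP to TIMP ratio of MIR21-KO over Ctrl was 0.7023 without MMP24, 0.2886 without TIMP1 and 0.2263 without MMP2 (the last chosen after seeing the data), compared with 0.4219 for all members, and 0.4091 to 0.4303 without each library. MMP24OS had log2 differences of -0.21 to 0.12 without each library and reversed to 0.12 without MIR21-KO replicate 3, and the cause was not tested. Over single genes, 636 values kept direction and call, 62 lost and 11 gained the call, and 1 reversed. Depth limits MMP1, MMP14 and TIMP3, for which at most 42 reads per library were counted.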
